A study of Mus musculus with 42 samples.

Results

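Lungs of newborn mice without Nfe2l2, the gene of the transcription factor NRF2, were compared after 3 days and after 2 days of hyperoxia. The comparison rests on 6 of the 42 arrays of the series, 3 whose titles name knockout lungs at day 3 of oxygen and 3 whose titles name knockout lungs at day 2. All 6 mice had the genotype given as Nrf-/- and breathed a stated oxygen content of at least 95 percent for 23 h a day, together with foster dams, from the first day of life. Day 3 of exposure fell on postnatal day 4 (P4) and day 2 on P3, so a longer exposure and a greater age cannot be told apart within the pair. The same days were therefore also read in 3 and 3 knockout lungs kept in room air (P4 and P3), and in 3 and 3 wild-type lungs (Nrf+/+) exposed to oxygen for 3 and for 2 days. Each array held the RNA of 1 mouse, taken from homogenised whole lung. Neither the strain, nor the sex of the pups, nor the hour at which lungs were taken is given in the sources used here.

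NRF2 switches on genes of glutathione synthesis, thioredoxin and detoxification when cells meet oxidants, and mice without it are known to be more sensitive to oxygen. Hyperoxia injures the thin gas exchange surface, and in the newborn lung it does so while air sacs and capillaries are still being formed. Known features of such injury are chemokines and acute phase proteins made by epithelium and macrophages, activation of p53, a halt in cell division and loss of airway club cells and capillary endothelium.

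The arrays matched their labels. Nfe2l2 read 4.81, 4.41 and 5.46 in day 3 knockout lungs and 4.72, 4.70 and 4.31 in day 2 knockout lungs, on the log2 scale of the deposited values, against 11.01, 11.23 and 11.56 in wild-type lungs at day 3. The surfactant gene Sftpc stood at 14.52 to 14.65 in day 3 knockouts and 14.70 to 14.75 in day 2 knockouts, and the alveolar type 1 gene Ager at 14.29 to 14.47 in day 3 knockouts and 14.33 to 14.41 in day 2 knockouts, so all 6 samples read as lung. None of the 6 had a score above 2 for liver, heart, skeletal muscle or thymus genes, where a score is the mean deviation of a list's genes from their means over the 42 arrays, taken relative to its median. By Xist and the Y-linked genes, replicate 3 of day 2 was the only female among the 6. Replicate 3 of day 3 lay nearest to the day 2 lungs: its correlation with them over all genes was 0.9886 to 0.991, against 0.982 to 0.986 for replicate 1 and 0.9801 to 0.9824 for replicate 2. It was the day 3 array closest to the day 2 mean in 63.42% of the genes that rose and 56.94% of those that fell. These are differences between animals of 1 group, and with 3 mice a group the number of arrays limits the precision.

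Before the values, the promoters of 4 of the genes that moved most are shown, to let the letters stand beside the numbers. They are the 250 bases before the start site from RefSeq on GRCm38.p6, read 5′ to 3′ along the gene. Capitals mark matches to the NF-kB consensus (Il6 and Cxcl2), to TGANTCA, the AP-1 site (Il6 and Mmp3), and to GCGTG, the core letters of the Ahr site (Cyp1a1). Il6 lies at chr5:30012864-30013113, Cxcl2 at chr5:90903649-90903898, Mmp3 at chr9:7445572-7445821 and Cyp1a1 at chr9:57697363-57697612, all on the plus strand.
Il6: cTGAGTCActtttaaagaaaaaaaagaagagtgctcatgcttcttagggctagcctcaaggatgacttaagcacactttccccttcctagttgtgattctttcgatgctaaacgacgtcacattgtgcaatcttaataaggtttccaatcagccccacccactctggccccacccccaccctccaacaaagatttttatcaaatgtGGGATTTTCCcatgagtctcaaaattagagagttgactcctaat
Cxcl2: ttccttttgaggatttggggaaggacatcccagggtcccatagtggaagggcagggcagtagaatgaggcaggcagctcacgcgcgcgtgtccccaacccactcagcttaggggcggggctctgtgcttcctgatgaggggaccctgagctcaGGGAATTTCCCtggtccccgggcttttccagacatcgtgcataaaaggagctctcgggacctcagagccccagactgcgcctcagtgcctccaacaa
Mmp3: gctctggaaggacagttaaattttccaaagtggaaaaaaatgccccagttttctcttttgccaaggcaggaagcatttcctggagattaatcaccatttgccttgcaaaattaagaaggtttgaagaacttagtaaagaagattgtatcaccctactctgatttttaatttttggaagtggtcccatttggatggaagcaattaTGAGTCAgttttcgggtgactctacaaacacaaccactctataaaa
Cyp1a1: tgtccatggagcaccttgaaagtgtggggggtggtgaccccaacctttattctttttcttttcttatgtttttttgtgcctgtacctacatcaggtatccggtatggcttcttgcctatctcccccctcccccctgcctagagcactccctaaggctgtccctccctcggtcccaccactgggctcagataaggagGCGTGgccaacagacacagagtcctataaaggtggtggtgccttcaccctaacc
The NF-kB match of Il6 begins 44 bases before the start site, the nearer of the 2 overlapping ones of Cxcl2 begins 96 bases before it, the TGANTCA match of Mmp3 begins 46 bases before it and the GCGTG of Cyp1a1 begins 54 bases before it. Both strands were searched. Over 27025 mouse promoters of this length, 7.0% held the NF-kB consensus, 6.9% TGANTCA and 28.2% GCGTG. Of the 10 genes with the largest rises, 6 had a promoter in the table, of which 2 held the NF-kB consensus, 2 held TGANTCA and 1 held GCGTG. Of the 10 genes with the largest falls, 8 had one, of which 0, 0 and 3 held these motifs. A match is a string of letters and says nothing of binding.

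From day 2 to day 3 of oxygen, a change in gene expression passed limma's test (adjusted p under 0.05) at 3756 of 18194 genes in knockout lungs. Of these, 1531 rose, 8.41% of the genes tested, and 2225 fell, 12.2%. A change of 2-fold or more was rarer, with 142 rises and 154 falls, and 29 genes changed 4-fold or more. The 3 day 3 arrays lay wholly above the 3 day 2 arrays at 3321 genes (18.3%) and wholly below them at 3539 (19.5%), and 1459 of the rises and 2092 of the falls that passed the test were among these. The median change over all genes was 0.02. A change is given below as log2 of day 3 over day 2 with its standard error (SE).

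The largest rise belonged to Saa3, an acute phase apolipoprotein that lung epithelium and macrophages make. It read 14.20, 14.35 and 13.66 in day 3 knockouts, against 8.33, 8.84 and 8.95 in day 2 knockouts, a rise of 5.37 ± 0.41 or 41.3-fold (adjusted p = 9.592e-11). Day 1 knockouts had a mean of 7.72 ± 0.24 (SD, n = 3), so nearly all of the increase fell within the third day. Ereg, the EGF receptor ligand epiregulin, measured 9.45, 10.29 and 8.62 in day 3 knockouts and 5.48, 5.50 and 5.21 in day 2 knockouts (rise 4.06 ± 0.25, adjusted p = 1.6e-12). The Ereg groups lie over 3 log2 units apart, and the lowest value at day 3 is that of replicate 3. Serpina3n, a serine protease inhibitor of the acute phase, read 11.90, 11.66 and 10.33 in day 3 knockouts against 7.01, 7.81 and 7.38 in day 2 knockouts (rise 3.90 ± 0.75, adjusted p = 0.0002427).

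Mmp3, the matrix protease stromelysin-1 whose promoter is shown above, had 9.81, 9.80 and 7.89 in day 3 knockouts and 5.22, 5.35 and 5.55 in day 2 knockouts (rise 3.79 ± 0.31, adjusted p = 3.019e-10). Il6, the cytokine that drives the acute phase response, had 8.67, 10.19 and 7.18 in day 3 knockouts and 4.68, 5.16 and 4.86 in day 2 knockouts (rise 3.78 ± 0.37, adjusted p = 1.229e-08). Both genes sat near the bottom of the scale at day 2, and neither group overlapped the other. The 10th percentile of an array was 4.57 in the median, so folds of genes near that level, Il6, Cxcl2, Cxcl5 and Chl1 among them, understate the change. Chl1, a neural cell adhesion molecule, had 8.05, 8.11 and 6.35 in day 3 knockouts and 4.14, 4.97 and 4.33 in day 2 knockouts (rise 3.03 ± 0.32). Chl1 is the least secure of the 10, because only 1 of its 4 probe sets moved so far and their mean rose by 0.93.

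Chemokines make up a further 3 of the 10. Cxcl2, a neutrophil attractant, had 7.74, 8.45 and 6.45 in day 3 knockouts and 4.71, 4.76 and 4.62 in day 2 knockouts (rise 2.85 ± 0.35). Cxcl5, another ligand of the same receptor, had 7.36, 7.84 and 5.63 in day 3 knockouts and 4.02, 4.42 and 4.30 in day 2 knockouts (rise 2.69 ± 0.37). Ccl2, the main monocyte attractant, had 10.55, 11.10 and 9.70 in day 3 knockouts and 7.28, 8.56 and 7.96 in day 2 knockouts (rise 2.52 ± 0.27). In all 3 the groups stay apart, with replicate 3 lowest and replicate 2 highest at day 3. The tenth gene was Fst, follistatin, which binds and blocks activins. Fst had 9.15, 9.93 and 8.67 in day 3 knockouts and 6.62, 6.92 and 6.46 in day 2 knockouts (rise 2.58 ± 0.25), while in knockout air its P4 level was lower than that at P3 by a called change of -0.88.

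**Figure D1:**
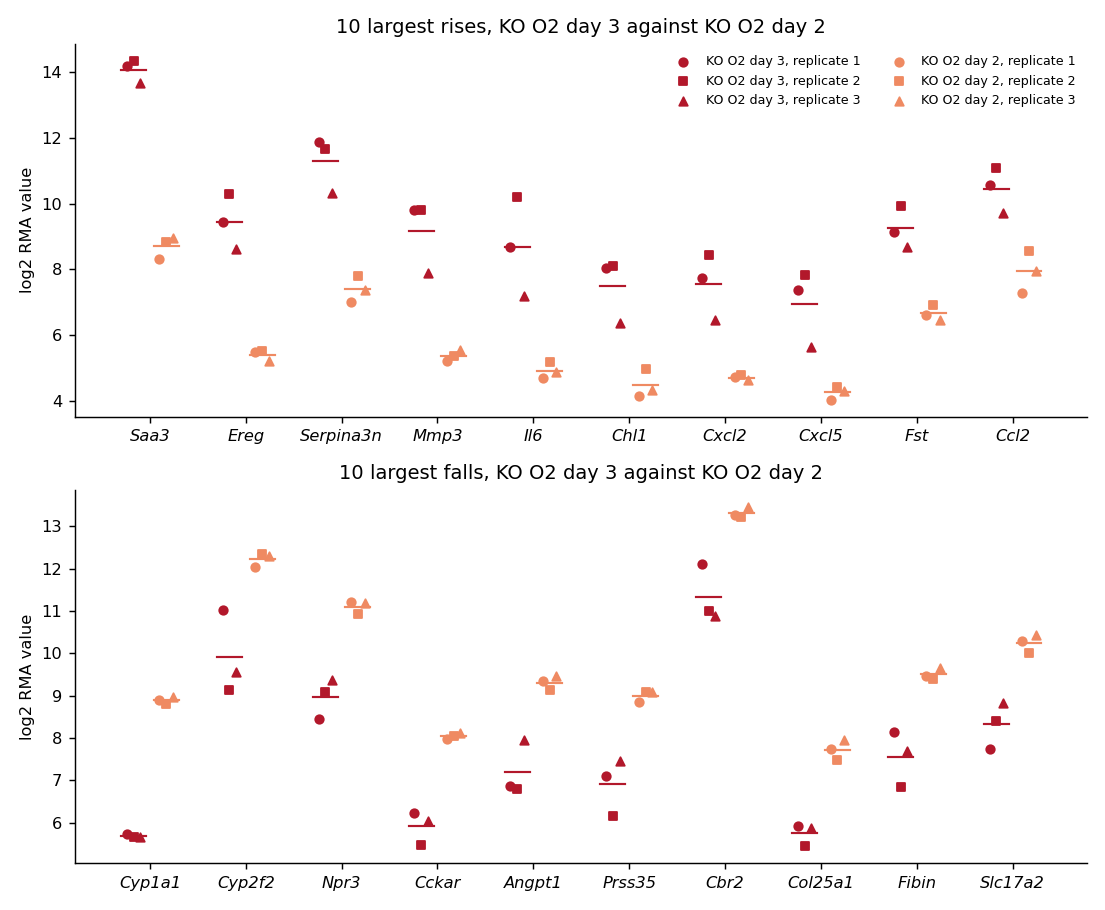
Values of the 10 genes with the largest rises (top) and falls (bottom) in KO O2 day 3 lungs (left of each pair) and KO O2 day 2 lungs, on the log2 RMA scale, with 1 point per array and a bar for the mean of 3. No gene has overlapping groups, Saa3 stands highest at day 3, and the 3 day 3 values of Cyp1a1 lie between 5.67 and 5.73.

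Among the falls, Cyp1a1, the xenobiotic-metabolising P450 that the Ahr receptor induces, came first. It read 5.73, 5.67 and 5.67 in day 3 knockouts, against 8.90, 8.81 and 8.98 in day 2 knockouts, and thus fell by 3.21 ± 0.40 or 9.22-fold (adjusted p = 5.683e-07). The level at day 1 of oxygen had been 8.41 ± 0.17 (SD, n = 3), and air lungs read 6.39, 6.61 and 7.14 at P4, so on day 3 all 3 oxygen lungs were below all 3 air lungs. Cyp2f2 and Cbr2 are enzymes of airway club cells. Cyp2f2 had 11.01, 9.12 and 9.57 in day 3 knockouts and 12.02, 12.35 and 12.29 in day 2 knockouts (change -2.32 ± 0.25, adjusted p = 6.511e-08). Cbr2 had 12.10, 10.99 and 10.88 in day 3 knockouts and 13.27, 13.23 and 13.45 in day 2 knockouts (change -1.99 ± 0.17). In both, replicate 1 kept the most.

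The other 7 falls do not belong to 1 list. Npr3, the clearance receptor for natriuretic peptides, had 8.45, 9.09 and 9.36 in day 3 knockouts and 11.20, 10.92 and 11.18 in day 2 knockouts (change -2.14 ± 0.17, adjusted p = 3.949e-10), and its 3 probe sets moved alike. Angpt1, the ligand that activates the endothelial receptor Tek and steadies vessels, had 6.86, 6.79 and 7.95 in day 3 knockouts and 9.34, 9.12 and 9.45 in day 2 knockouts (change -2.11 ± 0.21, adjusted p = 1.422e-08). Its air level did not fall over the same days, with a difference of 0.32 that missed the threshold. Cckar, a cholecystokinin receptor, had 6.23, 5.48 and 6.03 in day 3 knockouts against 7.98, 8.05 and 8.12 in day 2 knockouts (change -2.13 ± 0.21). Slc17a2, a solute carrier, had 7.75, 8.41 and 8.82 in day 3 knockouts and 10.28, 10 and 10.43 in day 2 knockouts (change -1.91 ± 0.24). The remaining 3, Prss35, Col25a1 and Fibin, fell by 2.09, 1.96 and 1.95, each with groups that do not overlap. The second probe set of Col25a1, a collagen, did not move (0.04), and the mean of both fell by 0.96. In air Col25a1 rose by 0.93 over the same days.

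Inflammatory genes rose widely over the third day. Of 26 measured chemokine genes, 14 rose and 0 fell, with a median change of 0.62, and of 26 cytokines and their receptors 20 rose and 1 fell, with a median of 0.79. Ccl3, which attracts monocytes and macrophages, had 7.12, 7.23 and 7.21 in day 3 knockouts and 5.35, 5.13 and 5.37 in day 2 knockouts, a rise of 1.91 ± 0.14 with hardly any spread. Ccl7, Cxcl3 and Cxcl10 rose by 1.94, 2.11 and 2.02. Chemokines that did not pass include the homeostatic Cxcl12 (-0.08), Ccl5 (0.33) and Ccl12 (0.19), and Cxcl1 rose by only 0.60 on its brightest probe set but by 2.15 in the mean of its probe sets.

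Several of the 20 that rose belong to IL-6 signalling, a grouping made after their values were seen. Beside Il6, the ligands Il11 and Lif rose by 2.07 and 2.00, the receptor chains Osmr and Il6st by 1.61 and 0.59, the transcription factor Stat3 by 0.56, and Socs3, the inhibitor that this pathway induces, by 1.74. Il11 rose by 1.33 without replicate 2 of day 3, and in the mean of their probe sets Lif rose by 1.26 and Stat3 by 0.31. Tnfrsf12a, the receptor for TWEAK that injured epithelium carries, had 11.74, 11.77 and 11.55 in day 3 knockouts and 9.71, 9.93 and 9.74 in day 2 knockouts (rise 1.89 ± 0.14). In the interleukin-1 system Il1b rose by 1.24, the receptor Il1r1 by 0.94 and the antagonist Il1rn by 1.28, while Il1a differed by 0.04. Csf3, the growth factor of neutrophils, had 6.80, 7.79 and 5.85 in day 3 knockouts and 5.76, 5.62 and 5.52 in day 2 knockouts, a rise of 1.18 that ended without replicate 2 of day 3 (0.69, adjusted p = 0.1631). Tnf (0.37) and Csf2 (0.18) did not pass, and Il18 fell by 0.39.

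Of 16 acute phase genes 8 rose and 0 fell. Lcn2, a siderophore-binding protein of epithelium and neutrophils, had 12.88, 13.23 and 12.61 in day 3 knockouts and 10.73, 10.58 and 10.93 in day 2 knockouts (rise 2.16 ± 0.21), and Lrg1 and Orm1 rose by 2.14 and 1.43. Markers of the cells that chemokines call in moved less evenly. Of 17 neutrophil genes 5 rose, among them the receptor Csf3r (1.15) and the lectin Clec4d (1.34), but the abundant granulocyte genes S100a8 (0.60) and S100a9 (0.73) did not pass, and the granule genes Ngp (-0.55), Camp (-0.44), Mpo (-0.07) and Elane (-0.03) gave no rise. The score of the neutrophil list was 0.28 to 0.88 in day 3 knockouts and 0.03 to 0.13 in day 2 knockouts. Of 23 macrophage genes 5 rose, namely the scavenger receptor Msr1 (1.56), the endotoxin co-receptor Cd14 (1.53), Gpnmb (1.67), Cd68 (1.08) and Ccr2 (0.47), while the lineage receptor Csf1r (-0.01) and the alveolar macrophage receptor Marco (0.20) did not pass. Gpnmb rose by 1.08 without replicate 1 of day 3 and by 0.97 in the mean of its probe sets. Their list score was 0.08 to 0.64 in day 3 knockouts and -0.12 to 0.05 in day 2 knockouts. Genes of the interferon response (0 of 20 called in either direction) and MHC class II genes (0 of 8) passed the test in no case. In whole lung, more or fewer cells of a type and more or less RNA per cell cannot be told apart.

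Coagulation genes moved in both directions. Of 16 measured genes 8 rose and 3 fell. F3, tissue factor itself, had 12.19, 12.47 and 12.11 in day 3 knockouts and 10.59, 10.25 and 10.41 in day 2 knockouts (rise 1.84 ± 0.19). Thbs1, the urokinase receptor Plaur and the plasminogen activator Plat rose by 1.35, 1.01 and 0.88, and Plat by 0.47 in the mean of its probe sets. The 3 genes that fell are endothelial products: thrombomodulin (Thbd, -0.48), the tissue factor inhibitor Tfpi (-0.35) and von Willebrand factor (Vwf, -0.61). Tfpi2, a related protease inhibitor, went the other way, with 10.0005, 10.65 and 8.85 in day 3 knockouts and 7.52, 7.26 and 7.50 in day 2 knockouts (rise 2.41 ± 0.29). Vwf lost its call without replicate 2 of day 3 (-0.45, adjusted p = 0.0774).

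Keratin and injury genes rose in whole lung while genes of airway cells fell. Of 21 keratins and injury genes 15 rose and 0 fell, with a median change of 0.98. Krt8 had 12.94, 12.88 and 12.75 in day 3 knockouts and 11.56, 11.47 and 11.53 in day 2 knockouts (rise 1.34 ± 0.19, adjusted p = 4.872e-06). Cldn4, a tight junction claudin that rises in damaged alveolar epithelium, had 11.10, 11.06 and 10.64 in day 3 knockouts and 8.89, 8.90 and 8.96 in day 2 knockouts (rise 2.01 ± 0.20). Krt18, Krt19, Krt7, Sfn and Lgals3 rose by 1.15, 0.98, 0.85, 1.60 and 1.27, and the EGF receptor ligand Hbegf by 1.53. Krt7, Krt8, Krt18 and Krt19 are keratins of simple epithelium, and the basal cell keratins Krt5 (0.40), Krt14 (-0.22), Krt15 (0.27) and Krt17 (0.19) did not pass.

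Alveolar identity genes had small changes in both directions. Of 17 alveolar type 2 genes 3 rose and 2 fell, with a median change of -0.10. The protease Ctsh rose by 0.92, the alarmin Il33 by 0.91 and Sftpd by 0.52, and the lipid transporter Abca3 and the acyltransferase Lpcat1 fell by 0.32 each. Abca3 and Lpcat1 each lost the call on leaving out any of 5 of the 6 arrays, for instance without replicate 1 of day 3 (Abca3 -0.28, adjusted p = 0.1315, and Lpcat1 -0.26, adjusted p = 0.1555). Sftpc differed by -0.13 (adjusted p = 0.05518). Of 17 type 1 genes 3 rose (Krt7, Aqp5 and Pdpn, by 0.85, 0.63 and 0.48) and 2 fell (Sec14l3 and Spock2, by 0.68 and 0.58). Ager (0.04) and Hopx (-0.09) did not pass. Among all genes tested 8.41% rose and 12.2% fell, so the counts of these alveolar lists say little of either cell type.

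Club cell genes fell, at 9 of 14 measured with 0 rises and a median of -0.79. The secretoglobin Scgb1a1, the most abundant product of these cells, had 14.23, 13.91 and 14.11 in day 3 knockouts and 14.66, 14.64 and 14.67 in day 2 knockouts (change -0.57 ± 0.06, adjusted p = 2.6e-08), near the top of the scale where arrays flatten differences. The carboxylesterase Ces1d had 9.70, 9.31 and 9.50 in day 3 knockouts and 10.89, 11.03 and 11.18 in day 2 knockouts (change -1.53 ± 0.14). Aldh1a7 and Aldh1a1, retinaldehyde-type dehydrogenases, fell by 1.17 and 1.39. Scgb3a2 shows how uneven the day 3 lungs were: 14.16, 12.15 and 11.40 in day 3 knockouts against 13.92, 14.42 and 13.94 in day 2 knockouts. Replicate 1 lay inside the day 2 range, so the fall of 1.52 was 2.32 without it, and without replicate 3 the change of Scgb3a2 was -0.94, which did not pass. The score of the whole list ran at 0.02, -1.50 and -1.71 in day 3 knockouts and -0.30, 0.29 and -0.23 in day 2 knockouts, so replicate 1 had no lower score than day 2. Knockout air lungs scored -0.73 to -0.34 at P3 and -0.91 to -0.63 at P4. In air 3 of the 14 genes fell over the same days, and the oxygen change was below the air change at 5 and above it at 0.

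Ciliated cell genes fell at 7 of 16 with 0 rises. Fam183b had 7.61, 5.94 and 6.30 in day 3 knockouts and 7.9998, 8.41 and 8.12 in day 2 knockouts (change -1.56 ± 0.27), and the radial spoke gene Rsph4a fell by 1.40. The master regulator Foxj1 did not pass (-0.40, adjusted p = 0.2963), though without replicate 1 of day 3 it fell by 0.91. As with club cell genes, the smallest loss was in replicate 1. How much airway a piece of whole lung holds was not measured apart from these genes, and its part in the result was not tested.

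**Figure D2:**
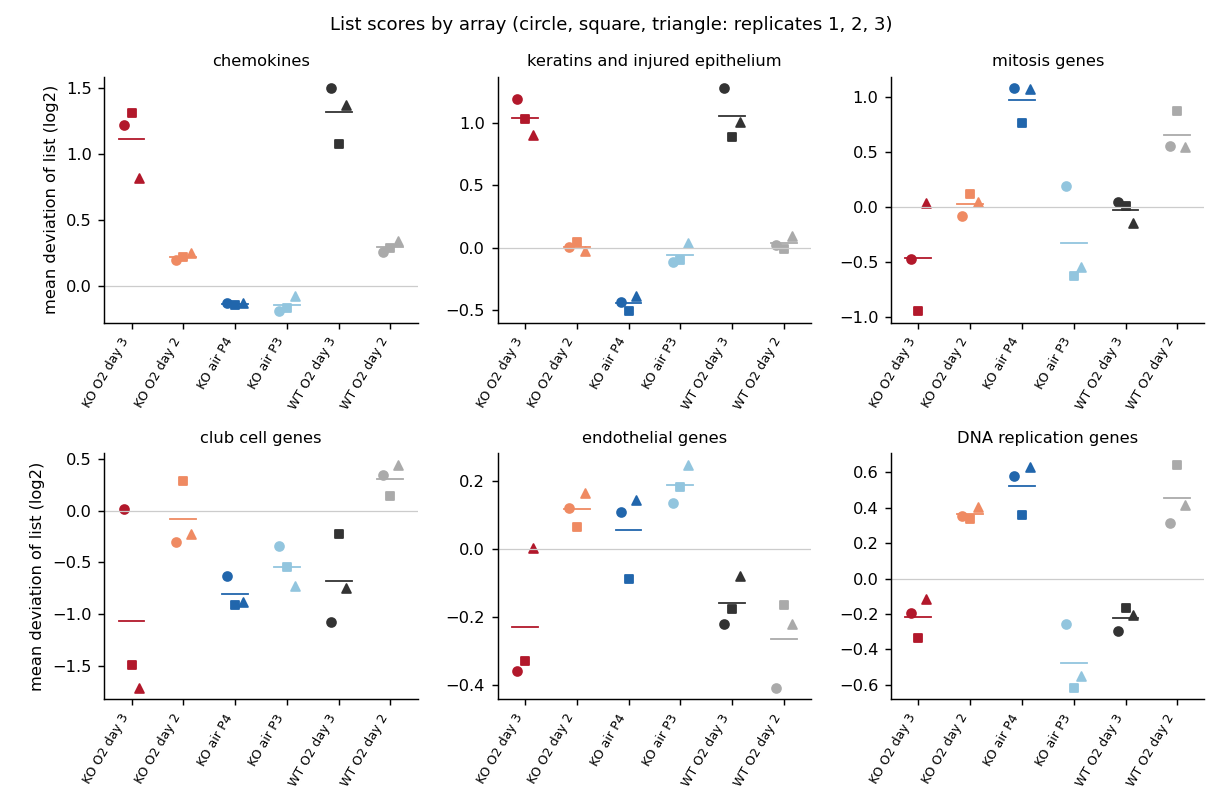
Scores of 6 gene lists in each array (mean deviation of the list's genes from their means over 42 arrays, log2), with KO O2, KO air and WT O2 lungs from left to right, the later day left of the earlier one and bars for means of 3. Chemokine and keratin scores are high in day 3 oxygen lungs of both genotypes, the mean mitosis score is highest in KO air P4 lungs, and the club cell score of KO O2 day 3 spans 0.02 to -1.71.

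Endothelial genes fell at 9 of 24 with 0 rises and a median of -0.23. From P3 to P4 in knockout air 2 of 24 fell, with a median of -0.16. The oxygen change was below the air change at 2 of 24 and above it at 0, against 11.5% and 8.58% of all genes. Ednrb, the endothelin receptor that marks a type of lung capillary cell, had 10.07, 9.74 and 10.33 in day 3 knockouts and 11.39, 11.23 and 11.38 in day 2 knockouts (change -1.29 ± 0.14, adjusted p = 3.888e-08). The apelin receptor Aplnr had 11.29, 10.74 and 11.42 in day 3 knockouts and 12.44, 12.35 and 12.54 in day 2 knockouts (change -1.29 ± 0.16). Gpihbp1, which anchors lipoprotein lipase on capillaries, had 10.15, 10.30 and 10.54 in day 3 knockouts and 11.19, 11.13 and 11.48 in day 2 knockouts (change -0.94 ± 0.15). In each, the day 3 lungs lie wholly below the day 2 lungs. Nostrin, Ramp2 and Tek fell by 0.63, 0.58 and 0.70, whereas the pan-endothelial cadherin Cdh5 (0.01), Emcn (0.09) and the VEGF receptor Kdr (-0.17) did not pass. Pecam1 and Cldn5 fell as well, with changes of -0.45 to -0.27 and -0.55 to -0.35 over the alternatives. They lost the call in 5 and 3 of 16 alternatives. In angiopoietin signalling the activating ligand Angpt1 and its receptor Tek fell, and the opposing ligand Angpt2 rose by 1.08, with 8.73, 9.57 and 8.19 in day 3 knockouts and 7.64, 7.73 and 7.88 in day 2 knockouts. Without replicate 2 of day 3 the rise of Angpt2 was 0.71, and in the mean of its probe sets it was 0.65. Vegfa (0.20) did not pass, and Pgf rose by 0.77.

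Mesenchymal genes fell more often than they rose, with 9 of 19 fibroblast and lipofibroblast genes down and 1 up. Tcf21, the transcription factor of lipofibroblasts, had 12.57, 12.19 and 12.80 in day 3 knockouts and 13.35, 13.26 and 13.40 in day 2 knockouts (change -0.82 ± 0.12). Meox2, Npnt, Wnt2 and Wnt5a fell by 1.01, 0.75, 0.74 and 0.81, Wnt5a without its call when replicate 1 of day 3 was left out (-0.58, adjusted p = 0.0807). The lipid droplet gene Plin2 was the 1 that rose, by 0.67. Elastin (Eln) had 13.79, 13.43 and 13.46 in day 3 knockouts and 13.38, 13.62 and 13.44 in day 2 knockouts and did not pass, but the microfibril gene Mfap2 and the elastic fibre assembly gene Fbln5 fell by 1.18 and 0.63. The matrix glycoprotein Tnc rose by 1.00. Fibrillar collagens did not pass, with Col1a1 at -0.25 and Col3a1 at -0.02.

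Among proteases and their inhibitors, of 17 measured, 6 rose and 2 fell, Mmp3 the most of those that rose. Timp1, the secreted inhibitor of metalloproteases, had 12.65, 12.54 and 11.42 in day 3 knockouts and 9.43, 10.02 and 9.65 in day 2 knockouts (rise 2.51 ± 0.22). Mmp10, Mmp12, Adam8 and Adamts4 rose by 1.26, 0.83, 1.36 and 1.49. The gelatinases Mmp2 (-0.16) and Mmp9 (0.18) did not pass. Growth factor signals were split. The activin subunits Inhba and Inhbb rose by 0.76 (0.46 in the mean of its probe sets) and 0.87, Pdgfb by 0.67, and Tgfb3 and Bmp2 fell by 0.75 and 0.61.

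NRF2 target genes were split in these lungs without NRF2. Of 30 measured, 7 rose and 8 fell, with a median of 0.09. Over the same days in knockout air 6 rose and 0 fell, and the oxygen change was above the air change at 3 and below it at 10. Hmox1, heme oxygenase 1, which other stress factors also induce, had 9.62, 10.02 and 9.36 in day 3 knockouts and 8.29, 8.33 and 8.41 in day 2 knockouts (rise 1.32 ± 0.13, adjusted p = 1.422e-08). Gclc, the catalytic subunit of glutathione synthesis, had 10.11, 10.62 and 9.92 in day 3 knockouts and 9.79, 9.64 and 9.95 in day 2 knockouts. That rise of 0.43 (adjusted p = 0.02585) rests on replicate 2, without which it was 0.23 (adjusted p = 0.3133). The partner subunit Gclm (0.06), the quinone reductase Nqo1 (-0.28), Srxn1 (0.32) and Txnrd1 (0.20) did not pass. Gsta2, a glutathione transferase, had 4.96, 5.45 and 5.17 in day 3 knockouts and 6.83, 6.94 and 7.24 in day 2 knockouts (change -1.81 ± 0.22, adjusted p = 3.773e-07). Gstm1 and catalase (Cat) fell by 0.77 and 0.73.

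Other stress programmes were mostly up. Of 23 p53 targets 9 rose and 0 fell. Cdkn1a, the Cdk inhibitor p21, had 12.71, 13.01 and 13.04 in day 3 knockouts and 12.30, 12.25 and 12.35 in day 2 knockouts (rise 0.62 ± 0.16). Air lungs at P4, the age of the day 3 lungs, read 9.64 to 9.83. At P3, the age of the day 2 lungs, the p53 target score was -0.12 to 0.02 in air and 0.87 to 0.98 in oxygen. Mdm2, Ccng1, Aen and Phlda3 rose by 0.64, 0.89, 0.64 and 0.49. Of 24 genes of the ATF4 stress response 7 rose and 2 fell, with Ddit3 (CHOP) at 0.81 (0.47 in the mean of its probe sets), Asns at 0.78 and Atf4 at 0.50. Immediate early genes rose at 13 of 20, led by the AP-1 subunits Fosb (2.07), Fosl1 (1.87) and Junb (1.43) and by Egr1 (1.57). Klf4 fell by 0.48 and lost the call in 5 of 16 alternatives, with -0.32 (adjusted p = 0.2047) without replicate 1 of day 3. Fosl1 had 8.25, 8.17 and 7.49 in day 3 knockouts and 6.16, 6.15 and 6.01 in day 2 knockouts. Among 19 hypoxia and glycolysis genes 5 rose and 1 fell, with the peptide adrenomedullin (Adm) at 2.16 and the glucose transporter Slc2a1 at 1.51, while Car9 (-0.23), Egln3 (-0.35) and Pdk1 (-0.40) did not pass.

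Heat shock genes rose at 7 of 22 and fell at 1, with a median of 0.14. They also rose in knockout air from P3 to P4, at 8 of 22 with a median of 0.20. The oxygen change was above the air change at 2 of the 22 and below it at 3. Hspa1a, the inducible Hsp70, had 8.45, 8.82 and 7.83 in day 3 knockouts and 6.93, 6.85 and 6.87 in day 2 knockouts (rise 1.48 ± 0.22, adjusted p = 9.041e-06), and its neighbour Hspa1b rose by 1.22. The pair are near-identical copies, so how far each probe set reads the other's RNA is uncertain. Hsph1 rose by 0.76. The chaperones of the endoplasmic reticulum Hspa5 (0.11), Hsp90b1 (-0.13) and Hyou1 (0.03) did not pass. Herpud1 fell by 0.53 and lost the call in 3 of 16 alternatives, with -0.43 (adjusted p = 0.07304) without replicate 3 of day 2. Slc39a14, the zinc and iron importer that IL-6 induces, had 10.18, 10.21 and 9.35 in day 3 knockouts and 8.003, 8.26 and 8.14 in day 2 knockouts (rise 1.78 ± 0.16), a value of its brightest probe set, as the mean of its 4 probe sets rose by 0.92.

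Cell division genes were lower, and replication more clearly than mitosis. Of 25 genes of DNA replication 11 fell and 0 rose, with a median of -0.59. Pola1, the catalytic subunit of the priming polymerase, had 7.57, 7.56 and 7.87 in day 3 knockouts and 8.67, 8.61 and 8.76 in day 2 knockouts (change -1.01 ± 0.21). Its second probe set, near the bottom of the scale, gave 0.06, and the mean of both fell by 0.48. Ccne2, cyclin E2, had 7.23, 7.41 and 8.02 in day 3 knockouts and 8.71, 8.66 and 8.75 in day 2 knockouts (change -1.15 ± 0.29). The day 3 arrays lay wholly below the day 2 arrays in 22 of the 25. Mitosis genes had a similar median, -0.56, but of 25 only Mki67 passed, with 9.16, 8.78 and 9.73 in day 3 knockouts and 9.90, 10.22 and 9.93 in day 2 knockouts (change -0.79 ± 0.28, adjusted p = 0.04528). Mki67 lost the call on leaving out any of 5 of the 6 arrays, with -0.57 (adjusted p = 0.2564) without replicate 2 of day 3 at the low end. The day 3 mitosis scores were -0.47, -0.95 and 0.03 against -0.08, 0.11 and 0.05 at day 2, so replicate 3 of day 3 lay within the day 2 range. Among Cdk inhibitors, Cdkn1a and Cdkn2a rose by 0.62 and 0.38 and Cdkn1c fell by 1.17.

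**Figure D3:**
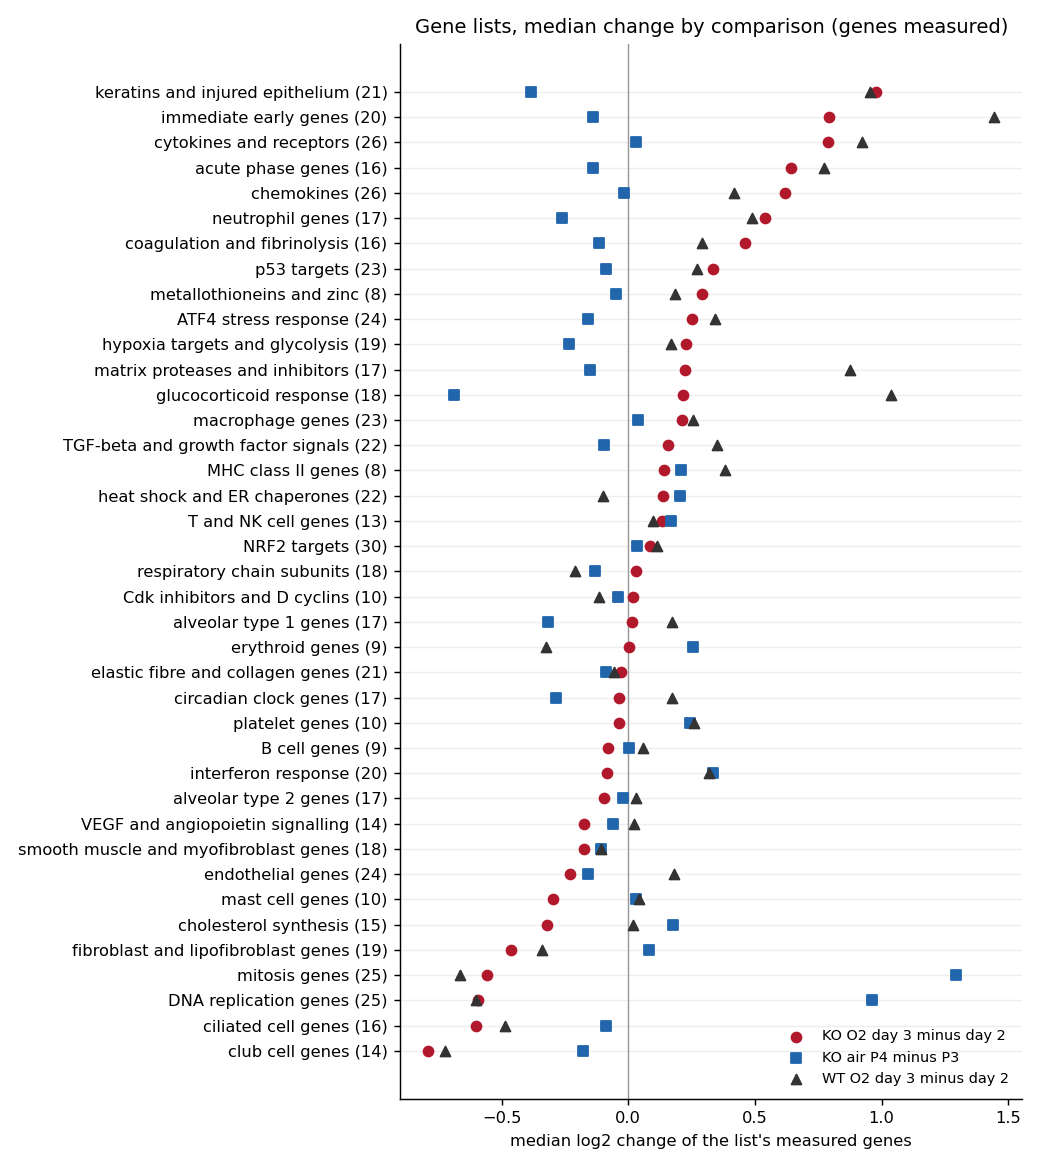
Median log2 change of each gene list's measured genes in KO O2 day 3 over day 2 (circles), KO air P4 over P3 (squares) and WT O2 day 3 over day 2 (triangles), with the number of genes measured in brackets. Keratins, cytokines and immediate early genes lie at the top and club cell, ciliated and cell division genes at the bottom, and for the mitosis list KO air lies at 1.30 against -0.56 in KO O2.

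Room air showed what the same day of life brings to knockout lungs without oxygen. From P3 to P4 in air 1478 genes rose (8.12%) and 1405 fell (7.72%). Oxygen and air changes come from separate lungs. Of the 1531 genes that rose in oxygen 110 (7.185%) also rose in air, 7.442% of the air rises, and 163 (10.65%) fell there, 11.6% of the air falls. Of the 2225 that fell in oxygen 280 (12.58%) fell in air, 19.93% of the air falls, and 303 (13.62%) rose there, 20.5% of the air rises. Among the air lungs at P3, replicates 2 and 3 scored above 2 for skeletal muscle genes (5.20 and 2.10), and without them and the other arrays of the series that scored above 2 for another tissue, the air comparison called 1034 genes in place of 2883.

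The difference between the oxygen change and the air change was tested directly and passed at 3660 genes, positive at 1561 (8.58%) and negative at 2099 (11.5%). Without all arrays high in another tissue the count was 3196. The largest positive differences were those of Saa3 (5.37) and Serpina3n (4.35), neither with a called change in air. They were followed by 2 muscle genes, Myh8 (4.24) and Tnnt3 (4.05), whose knockout oxygen values were low in all 6 lungs. Myh8 read 5.24, 5.17 and 5.11 in day 3 knockouts and 5.07, 5.55 and 4.86 in day 2 knockouts, against 4.86, 5.19 and 5.49 at P4 and 6.05, 12.92 and 9.23 at P3 in air. Without the arrays high in another tissue neither gene passed (Myh8 0.89 and Tnnt3 0.67).

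Cell division genes differed between oxygen and air. All 25 mitosis genes and all 25 replication genes rose from P3 to P4 in knockout air lungs, with medians of 1.30 and 0.96, and the oxygen change was below the air change at 25 and 24 of them. Most of the mitosis calls in air ended without the arrays high in another tissue, where 3 of 25 mitosis genes (median 0.80) and 17 of 25 replication genes (median 0.77) rose, and with tissue scores as covariates 1 and 7 did. The oxygen change was still below the air change at 20 mitosis and 24 replication genes without those arrays, and at 22 of each with the covariates. Ccne2, whose oxygen values are above, read 8.82, 8.59 and 8.94 at P4 and 7.02, 6.51 and 6.56 at P3 in air, so its difference was -3.23 (adjusted p = 1.84e-06). The cohesion gene Dscc1, which had 6.25, 5.91 and 6.38 in day 3 knockouts and 7.72, 7.59 and 7.76 in day 2 knockouts, rose in air and had a difference of -2.93. Its second, dimmer probe set did not pass in oxygen (-0.09), and in the mean of both Dscc1 fell by 0.80 in oxygen and had a difference from air of -1.62. Slitrk6, a neuronal membrane protein, had a difference of -3.01, and Cyp1a1 one of -3.13. The mitosis score stood at 0.76 to 1.08 in air lungs at P4 and -0.63 to 0.19 at P3, with the 2 muscle-rich lungs lowest, and the day 2 oxygen lungs lay within the P3 range. Keratins ran the other way in air: 0 of 21 rose and 8 fell there (5 without the arrays high in another tissue), and the oxygen change was above the air change at 14. Krt8 rose by 1.34 in oxygen and fell by 0.61 in air, and Cldn4 rose by 2.01 in oxygen and fell by 1.33 in air.

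Wild-type lungs went through the same day of oxygen with 1813 rises (9.96%) and 1525 falls (8.38%). Of the knockout rises 775 (50.62%) were also wild-type rises, 42.75% of those, and of the knockout falls 680 (30.56%) were also wild-type falls, 44.59% of those. Opposite calls were few: 9 genes rose in knockout and fell in wild type, and 67 fell in knockout and rose in wild type. The 2 genotypes share no array. The change itself differed between genotypes at 845 genes, 159 with the knockout change above the wild-type change (0.874%) and 686 with it below (3.77%). Those above made up 18.8% of the calls as deposited and 29.9% after cyclic loess scaling. Some wild-type lungs scored high for other tissues: replicates 1 and 3 of day 3 scored 4.69 and 3.25 for liver genes and replicate 1 of day 2 scored 3.32 for heart genes, against at most 0.48 for either list in the 6 knockout oxygen lungs. Without the arrays that scored above 2, which leaves a lone wild-type lung at day 3 that is assumed to vary like the other groups, 193 genes differed.

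**Figure D4:**
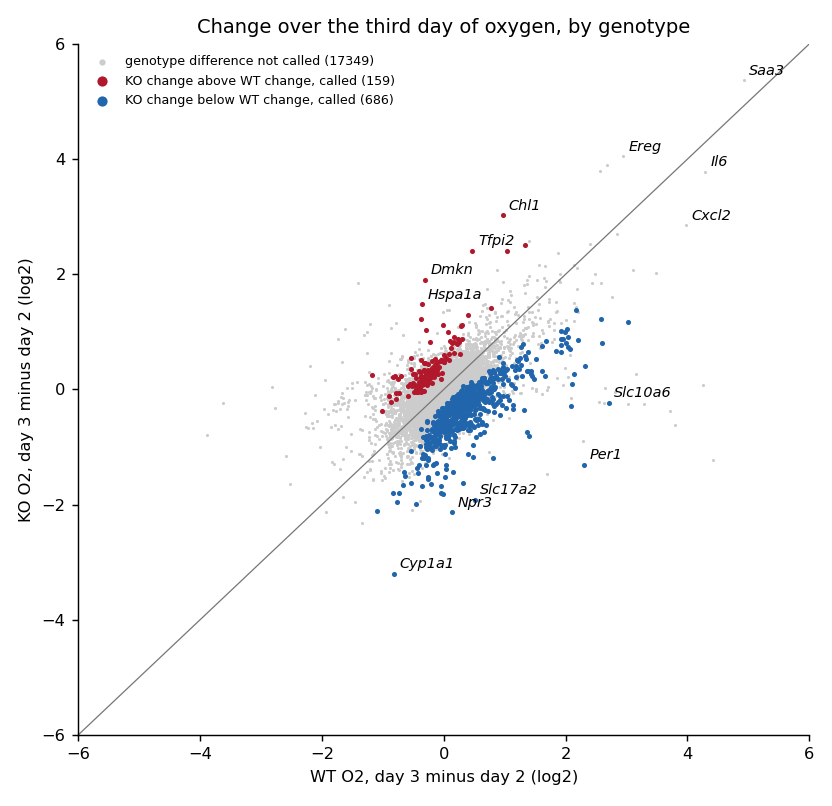
Log2 change from day 2 to day 3 of oxygen for 18194 genes, in knockout lungs (vertical) and wild-type lungs (horizontal), with genes whose changes differed between genotypes in colour and the line of equal change. Saa3, Il6 and Ereg lie at the upper right, Per1 and Slc10a6 lie far below it and Chl1, Tfpi2, Dmkn and Hspa1a above it.

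Several of the inflammatory rises were called in both genotypes. Saa3 rose by 5.37 in knockout and 4.93 in wild type, and Il6 by 3.78 in knockout and 4.29 in wild type. Ccl2 rose by 2.52 in knockout and 2.39 in wild type, and Krt8 by 1.34 in knockout and 1.41 in wild type. None of these 4 differences passed the test, which does not show that the genotypes moved alike. The genes whose knockout rise was larger were few. Chl1 rose by 3.03 in knockout and 0.98 in wild type (difference 2.05 ± 0.45, adjusted p = 0.005777), Tfpi2 rose by 2.41 in knockout with 0.47 in wild type (difference 1.94 ± 0.41), and Timp1 rose by 2.51 in knockout and 1.34 in wild type (difference 1.17, adjusted p = 0.0228). Dmkn, the epithelial protein dermokine, had 10.52, 10.50 and 10.09 in day 3 knockouts and 8.39, 8.64 and 8.36 in day 2 knockouts, whereas wild-type lungs read 8.40, 8.88 and 8.52 at day 3 and 8.95, 8.56 and 9.22 at day 2 (difference 2.21 ± 0.43, adjusted p = 0.002142). Hspa1a rose in knockout while wild-type lungs had 7.73, 7.95 and 7.65 at day 3 and 8.41, 7.68 and 8.31 at day 2 (difference 1.84 ± 0.31, adjusted p = 0.0006546). The wild-type level of Hspa1a was thus already high at day 2. Without the arrays high in another tissue the calls of all 4 of Chl1, Tfpi2, Dmkn and Hspa1a ended while the differences stayed large, at 1.86 for Chl1 (adjusted p = 0.1693), 1.72 for Tfpi2 (0.1572), 1.91 for Dmkn (0.09083) and 1.53 for Hspa1a (0.07643). In the mean of its probe sets, the difference of Chl1 was 0.65.

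**Figure D5:**
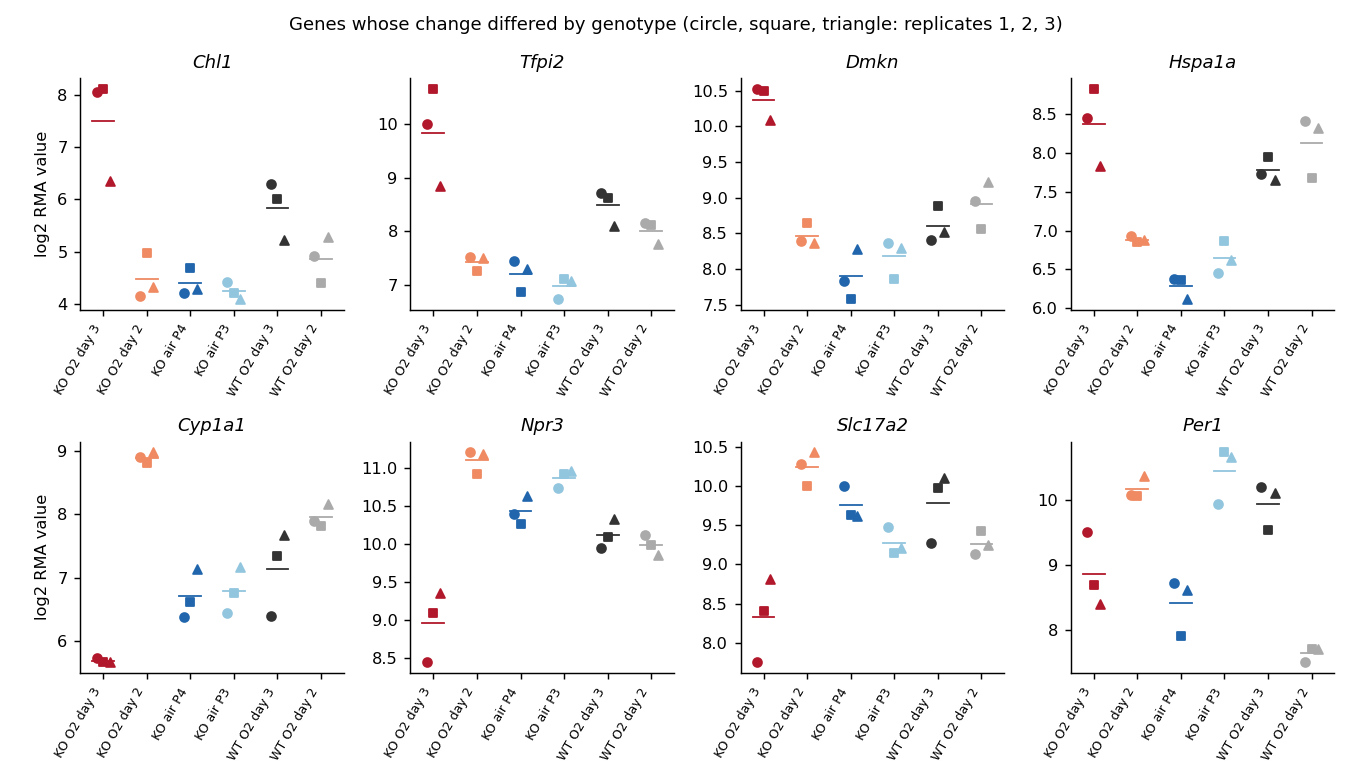
Values per array (log2 RMA scale) of 8 genes whose change differed between genotypes, with KO O2, KO air and WT O2 lungs from left to right, the later day left of the earlier one and bars for means of 3. The 3 KO O2 day 3 lungs are the highest of the 18 for Tfpi2 and Dmkn, the lowest for Npr3, and Per1 goes down in KO lungs and up in WT lungs.

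Genes with a lower knockout change included genes of vessels and of detoxification. Npr3 fell by 2.14 in knockout, while wild-type lungs had 9.95, 10.09 and 10.32 at day 3 and 10.12, 9.99 and 9.86 at day 2 (difference -2.27 ± 0.25, adjusted p = 7.39e-07). Slc17a2 fell by 1.91 in knockout with 0.51 in wild type (difference -2.43 ± 0.34, adjusted p = 7.829e-05). Cyp1a1 fell by 3.21 in knockout, against a wild-type change of -0.82 that did not pass, with 6.39, 7.35 and 7.67 at day 3 and 7.90, 7.82 and 8.16 at day 2 (difference -2.38 ± 0.56, adjusted p = 0.01002). Ednrb (difference -1.13), Gpihbp1 (-1.10), Cldn5 (-0.92) and Nostrin (-0.89) made up part of the 7 of 24 endothelial genes with a lower knockout change, against 0 with a higher one. Without the arrays high in another tissue 4 of the 24 were lower. The genotypes differed more at day 2 than at day 3 for Gpihbp1, which ranged from 10.15 to 10.54 in knockout and 10.497 to 10.55 in wild type at day 3, and from 11.13 to 11.48 in knockout and 10.24 to 10.46 in wild type at day 2. The score of the endothelial list did so too, at 0.06 to 0.16 in knockout and -0.41 to -0.16 in wild type at day 2. At day 3 this score overlapped, at -0.36 to 0.002 in knockout and -0.22 to -0.08 in wild type.

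Of 30 NRF2 targets 6 had a lower knockout change and 0 a higher one, and without the arrays high in another tissue 2 were lower. Srxn1 had 7.92, 7.76 and 7.55 in day 3 knockouts and 7.11, 7.56 and 7.59 in day 2 knockouts, while wild-type lungs had 10.15, 9.62 and 10.10 at day 3 and 8.48, 8.52 and 8.72 at day 2 (difference -1.06, adjusted p = 0.004077). Gclc rose by 0.43 in knockout and 1.26 in wild type (difference -0.84), Slc7a11 and Txnrd1 showed differences of -0.78 and -0.61, and Gsta2 fell by 1.81 in knockout with -0.01 in wild type (difference -1.80). Hmox1 was not among them: it rose by 1.32 in knockout and 0.84 in wild type, and its difference did not pass. Of 14 club cell genes 5 had a lower knockout change, among them Cbr2 (-1.52) and Ces1d (-1.28), and 2 without those arrays. In wild type, club cell genes also fell, at 9 of 14 with a median of -0.72, and ciliated cell genes at 8 of 16. With tissue scores as covariates these wild-type counts were 5 and 2. Replication genes fell in wild type at 16 of 25, and p53 targets rose there at 9 of 23. Bmp2 moved in opposite directions, with 7.74, 7.74 and 7.72 in day 3 knockouts and 8.46, 8.31 and 8.25 in day 2 knockouts against 8.59, 8.33 and 8.19 at day 3 and 7.69, 7.75 and 7.80 at day 2 in wild type (difference -1.23, adjusted p = 0.0006431).

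The largest difference between genotypes was that of Per1, a gene of the circadian clock that glucocorticoids also induce. Per1 had 9.51, 8.69 and 8.40 in day 3 knockouts and 10.09, 10.07 and 10.38 in day 2 knockouts, a fall of 1.31, whereas wild-type lungs had 10.20, 9.54 and 10.11 at day 3 and 7.50, 7.72 and 7.71 at day 2, a rise of 2.31 (difference -3.62 ± 0.40, adjusted p = 1.032e-06). Knockout lungs in air fell as well, by 2.03, with 8.73, 7.91 and 8.62 at P4 and 9.95, 10.74 and 10.67 at P3. Slc10a6 and Tent5b did not pass in knockout (-0.23 and -0.30) and rose by 2.71 and 2.09 in wild type, for differences of -2.94 and -2.39. Both also had high values in knockout air at P3, at 8.92 to 9.73 for Slc10a6 and 7.18 to 8.36 for Tent5b. Of 18 genes of the glucocorticoid response, 6 had a lower knockout change and 0 a higher one, Cebpd (-1.78) and Errfi1 (-1.92) among them, and 10 of the 18 fell in knockout air over the same days. Without the arrays high in another tissue, 2 of the 18 had a lower knockout change and 3 fell in air, and with tissue scores as covariates 5 and 3 did. Of 17 clock genes 4 had a lower knockout change, and 1 without the arrays high in another tissue. The hour at which each group of lungs was taken is not given, and its part in these differences was not tested.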

How the data were processed

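Total RNA of whole lungs was hybridised to Affymetrix arrays, 42 in 14 groups of 3, 1 mouse each. The deposited values are log2 signals that the authors made with RMA, and GCOS is also named, per the submitters' processing notes, which give no versions. They were used as deposited, with no further scaling. Of 45101 probe sets, 35890 had a gene in the platform annotation, 34958 of them 1 symbol, 932 several and 9211 none. Where a symbol had several probe sets (9012 genes), the one of highest mean over the 42 arrays was kept, which gave 18194 genes with no filter on low values.

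Group means were fitted with limma 3.58.1 in R 4.3.3 to all 42 arrays, which share one estimate of spread (28 residual degrees of freedom), and 2-sided p-values were moderated with eBayes and adjusted by the Benjamini-Hochberg method over 18194 genes. Every adjusted p printed is from this limma model unless an alternative is named, and a change was called at an adjusted p under 0.05. The script was tested on simulated data. Nothing says that lungs came from separate litters, so p-values measure the spread between these mice. Arrays carry no read depth, and their number limits the precision.

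The samples, the gene lists and the genes named were chosen with earlier results of these data known. Genes named by rule were the 10 largest called rises and falls without overlap, and the 4 largest differences in each direction from air and from wild type. Genes named from the lists beyond that were chosen after their values were seen. Of 787 listed genes in 45 lists, 723 were measured. The alternatives tried are cyclic loess scaling, robust variances with an intensity trend, array weights, the brighter 60 percent of genes, the mean of all probe sets, only the arrays compared, a replicate block, tissue and sex scores as covariates, each array left out in turn and, added after the data were seen, the arrays high in another tissue left out.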

Additional observations from a re-analysis of the deposited data

Results flagged for a closer look

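Whether a change over the day differed between 2 kinds of lung was tested directly in the limma model. Groups of 3 arrays were too small to look for single outlying arrays by the usual criterion. The change in knockout oxygen lungs differed from that in knockout air lungs at 3660 genes, and from that in wild-type oxygen lungs at 845 genes.

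Against air, the largest positive differences belonged to Saa3 (5.37), Serpina3n (4.35), Myh8 (4.24) and Tnnt3 (4.05). Myh8 and Tnnt3 encode skeletal muscle proteins that were at 12.92 and 12.77 in 1 air lung at P3 and below 7 in all 6 knockout oxygen lungs, and both lost the call without the arrays high in another tissue. Myh8 lost it in 17 of 21 alternatives and Tnnt3 in 5 of 21. The largest negative differences belonged to Ccne2 (-3.23), Cyp1a1 (-3.13), Slitrk6 (-3.01) and Dscc1 (-2.93). Ccne2, Dscc1 and Slitrk6 fell in oxygen and rose in air, and Cyp1a1 fell in oxygen with no called change in air.

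Against wild type, Dmkn (2.21), Chl1 (2.05), Tfpi2 (1.94) and Hspa1a (1.84) had the larger knockout change, and Per1 (-3.62), Slc10a6 (-2.94), Slc17a2 (-2.43) and Tent5b (-2.39) the lower one. Per1 is the 1 of these 8 whose change was called in opposite directions in the genotypes.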

How the results depend on the processing

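For knockout oxygen day 3 against day 2, 3756 genes were called, and leaving out 1 array gave 2427 (without replicate 2 of day 3) to 3794 genes. Other alternatives gave 2939 to 4692. Of 270 gene results in that comparison, 183 were called and 136 kept the call under every alternative run. Clock differed by 0.35 on its brightest probe set and by -0.16 in the mean of its 4 probe sets, so its direction is not settled.

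The counts of the other comparisons moved more. Knockout air P4 against P3 (2883 genes) gave 4792 with array weights, 1916 from only the arrays compared, 1336 with tissue scores as covariates and 1034 without arrays high in another tissue, and 1957 to 2707 on leaving out 1 array. Wild-type oxygen (3338) gave 5340 with array weights, 667 without arrays high in another tissue and 2061 to 3260 on leaving out 1 array, lowest without replicate 1 of day 3. The genotype difference (845) gave 1658 with array weights, 466 from only the arrays compared, 193 without arrays high in another tissue and 469 to 1108 on leaving out 1 array, lowest without replicate 3 of knockout day 2. The oxygen change less the air change (3660) stayed at 2875 to 5197. The causes of these shifts were not tested, beyond the fewer arrays that some settings leave.

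Replicate numbers do not pair the mice: same-numbered lungs had deviation correlations of -0.44, -0.22 and 0.14. With the replicate block the counts were 3791 for knockout oxygen, 2939 for knockout air, 3720 for oxygen less air, 3437 for wild-type oxygen and 905 for the genotype difference.

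With 3 mice a group and age and exposure advancing together, small changes are the least certain. Values near the bottom or top of the scale are compressed. Sex was mixed in day 2 knockouts and, by score, uneven in other groups. The sex gene score was 0.13 to 0.26 in day 3 knockouts and -0.85 in the female of day 2. In knockout air lungs it was -0.91 to -0.80 at P4 and -0.74 to 0.27 at P3. In wild-type oxygen lungs it was -0.91 to 0.71 at day 3 and -0.66 to 0.62 at day 2. The covariate for sex was a different score, the mean of the Y-linked genes Eif2s3y, Kdm5d and Uty less Xist. With it, oxygen less air called 3543 genes and the genotype difference 688.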

Other observations

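Cholesterol synthesis genes fell at 7 of 15 in knockout oxygen lungs, with 0 rises and a median of -0.32. Insig1, a sterol-sensing regulator of the pathway, had 6.71, 7.07 and 7.30 in day 3 knockouts and 8.21, 8.17 and 8.08 in day 2 knockouts, a fall of 1.13 ± 0.16, and in wild-type lungs it differed by 0.03 (difference -1.15). Fdps fell by 0.49 on its brightest probe set, but its 2 probe sets moved in opposite directions. Respiratory chain subunits gave no call in 18. Metallothionein and zinc genes rose at 4 of 8 and fell at 1.

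Smooth muscle and myofibroblast genes fell at 5 of 18 with 0 rises, and over the alternatives at 2 to 8 with 0 to 2 rises. Tgfbi and Fgf18 lost the call in 8 and 6 of 16 alternatives. The list score was 0.22, -0.42 and -0.12 in day 3 knockouts and 0.03 to 0.07 in day 2 knockouts. Mast cell genes fell at 2 of 10 and B cell genes at 2 of 9, while 0 of 13 T and NK cell genes passed in either direction. Among all genes tested 12.2% fell, so these small counts say little of the cell types. The mast cell gene Gata2 lost the call in 8 of 16 alternatives, and the B cell genes Cd79a and Ms4a1 in 8 and 4. Macf1, a cytoskeletal linker named after its values were seen, had 10.85, 11.17 and 11.45 in day 3 knockouts and 12.26, 12.20 and 12.14 in day 2 knockouts, a fall of 1.04, against -0.07 in wild type (difference -0.97).

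Adipoq, a fat cell gene, stood at 8.80 in replicate 1 of day 3 and 5.12 and 4.67 in the others, and at 4.53, 6.17 and 4.41 in day 2 knockouts. The fat score of that lung was 1.53, the highest of the 6.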
